A study of Mus musculus with 7 samples.

Results

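The data described are the regions of mouse chromosome 8 that short nascent strand sequencing picked out as sites of replication initiation in embryonic stem cells. They comprise every chromosome 8 row of the 6 MACS peak lists, 1 per library, and of the 3 origin lists, 1 per condition. Over the 6 libraries, 27662 of 476233 peaks lay on chromosome 8, and over the 3 lists 4539 of 83215 origins did.

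The stressed groups were 2 libraries of cells treated with 0.5 µM aphidicolin for 2.5 h (APH 1 and APH 2) and 2 libraries of cells given doxycycline at 1 µg/ml for 30 h to overexpress CDC6 (CDC6 1 and CDC6 2). Untreated cells gave 2 libraries, WT 1 and WT 2. WT 2 and all 4 stressed libraries came from TetO-CDC6 stem cells, a line that carries an inducible CDC6 transgene, so APH cells and WT 2 cells carried the transgene without its inducer. WT 1 came from another stem cell line labelled wild type, was described as submitted earlier, and was grown with 10% rather than 15% serum. Cell line, medium and earlier submission of WT 1 therefore cannot be told apart. The input sample was of the TetO-CDC6 line, and the peak names of all 6 MACS lists give 1 and the same control. Peak names in the list of WT 1 also give its library a name that ends in WT_II, while the sample labels, followed here, make it WT replicate I, so every value of WT 1 is of the library labelled so. The labels do not say whether libraries of 1 condition were separate cultures. The p-values therefore rest on the spread among these libraries, which may be technical.

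Replication starts at origins, which are licensed in G1 when the origin recognition complex, CDC6 and CDT1 load the MCM helicase, and only some licensed sites fire in S phase. The sequenced strands are short RNA-primed DNA fragments made at firing origins. Aphidicolin inhibits the replicative DNA polymerases and slows forks, after which dormant licensed sites can fire. Mouse embryonic stem cell lines are known to gain a copy of chromosome 8 recurrently in culture. No file used here gives read depth or chromosome number, so copy number was not measured, and its part in any value below was not tested.

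Promoter sequences of both kinds of site, those shared by all libraries and those in WT 1 alone, are printed first. Each sequence below is the 250 bases before a RefSeq gene start (GRCm38.p6), written 5′ to 3′ on the gene's strand, with CG dinucleotides in capitals. The first set is shown because these genes hold origins among the highest ranked of those present in all 3 condition lists, with a peak in all 6 libraries. They are Neto2 (chr8:85700925-85701174, minus strand), Mlycd (chr8:119394644-119394893, plus strand) and Siah1a (chr8:86746007-86746256, minus strand).
Neto2: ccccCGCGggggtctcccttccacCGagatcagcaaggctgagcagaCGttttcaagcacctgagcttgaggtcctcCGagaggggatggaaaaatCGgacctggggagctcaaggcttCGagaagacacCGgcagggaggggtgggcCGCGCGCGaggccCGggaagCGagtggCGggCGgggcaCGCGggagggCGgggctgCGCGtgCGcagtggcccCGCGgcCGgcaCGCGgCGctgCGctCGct
Mlycd: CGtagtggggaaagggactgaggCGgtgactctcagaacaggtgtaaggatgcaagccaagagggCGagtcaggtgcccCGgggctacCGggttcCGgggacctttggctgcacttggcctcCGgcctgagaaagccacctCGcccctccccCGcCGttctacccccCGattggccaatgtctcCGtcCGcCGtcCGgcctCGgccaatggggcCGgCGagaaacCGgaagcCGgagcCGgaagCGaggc
Siah1a: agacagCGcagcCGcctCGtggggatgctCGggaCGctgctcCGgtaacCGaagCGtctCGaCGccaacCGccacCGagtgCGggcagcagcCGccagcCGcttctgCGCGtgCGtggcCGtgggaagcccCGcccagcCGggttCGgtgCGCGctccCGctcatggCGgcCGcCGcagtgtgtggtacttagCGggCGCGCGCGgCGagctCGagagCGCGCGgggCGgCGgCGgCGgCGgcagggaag
The second set is shown because these are 3 of the 11 listed genes described below whose gene-end peak was in WT 1 and in no other library, and their promoter windows met a peak of WT 1 alone. They are Neil3 (chr8:53639066-53639315, minus strand), Mt2 (chr8:94172368-94172617, plus strand) and Galntl6 (chr8:58911628-58911877, minus strand).
Neil3: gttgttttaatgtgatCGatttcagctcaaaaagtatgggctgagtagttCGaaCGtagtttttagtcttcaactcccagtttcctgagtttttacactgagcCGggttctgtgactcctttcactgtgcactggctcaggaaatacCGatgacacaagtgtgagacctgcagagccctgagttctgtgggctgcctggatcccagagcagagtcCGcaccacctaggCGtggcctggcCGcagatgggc
Mt2: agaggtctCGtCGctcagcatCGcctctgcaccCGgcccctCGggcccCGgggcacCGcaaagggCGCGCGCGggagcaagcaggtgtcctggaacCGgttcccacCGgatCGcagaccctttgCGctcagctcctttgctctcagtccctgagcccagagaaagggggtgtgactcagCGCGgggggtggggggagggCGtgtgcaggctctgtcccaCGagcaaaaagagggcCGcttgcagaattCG
Galntl6: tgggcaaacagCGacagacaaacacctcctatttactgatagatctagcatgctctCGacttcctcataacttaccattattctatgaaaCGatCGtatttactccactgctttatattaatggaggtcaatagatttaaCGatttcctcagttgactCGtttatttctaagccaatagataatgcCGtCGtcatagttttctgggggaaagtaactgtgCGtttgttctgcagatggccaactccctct
The stretches of Neto2, Mlycd and Siah1a held 30, 22 and 43 CG dinucleotides, and those of Neil3, Mt2 and Galntl6 held 8, 21 and 9, so the printed sets overlap, with Mt2 close to Mlycd. Among 1442 promoter windows of chromosome 8 (250 bases before to 50 after a gene start), those with a peak in WT 1 alone (183 windows) had a median of 6 CG dinucleotides, windows with a peak in all 6 libraries (354) had 27, and windows with no peak (563) had 3. A G-quadruplex type motif was searched on both strands as 4 runs of GGG, or of CCC, parted by 1 to 7 bases. It was in 10.9% of the windows with a peak in WT 1 alone, in 43.2% of those with a peak in all 6 libraries, in 3.55% of those with none and in 17.96% of all chromosome 8 windows. On the other 18 autosomes the motif was in 21.9% of 1723 windows with a peak in WT 1 alone, in 40.4% of 7526 with a peak in all 6 libraries and in 18.8% of all windows. On chromosome 8 the WT 1 windows held the motif less often than the average window, while elsewhere they held it slightly more often. This is a description of letters, and the difference between the chromosomes was not tested.

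Chromosome 8 held more peaks in WT 1 than in any other library. WT 1 had 7826 peaks on it, against 3812 in APH 1, 3733 in APH 2, 3810 in CDC6 1, 4542 in CDC6 2 and 3939 in WT 2. All lists differ in length, from 71435 peaks in APH 2 to 94747 in WT 1, so shares of the list were compared. Chromosome 8 took 8.26% of the peaks of WT 1, and 5.11%, 5.23%, 5.26%, 5.53% and 4.86% of the peaks of APH 1, APH 2, CDC6 1, CDC6 2 and WT 2. The other 5 libraries averaged 5.20% ± 0.245 (SD, n = 5), so WT 1 lay outside their range at 1.59 times their mean. The difference of 3.06 percentage points had a two-sided exact permutation p of 0.167, the smallest that 1 library against 5 can give. At the mean ratio of the other libraries to the rest of their lists, WT 1 would have had 4767 chromosome 8 peaks, 3059 fewer than listed.

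No other chromosome stood as high in WT 1. The next highest ratio was 1.09, on chromosome 19, and the lowest was 0.548, on the X chromosome. On the X chromosome WT 1 had 1.75% of its peaks, and the other 5 libraries themselves ranged from 2.24% to 4.15%. On chromosome 8 the highest of the other 5 was 1.14 times the lowest.

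**Figure D1:**
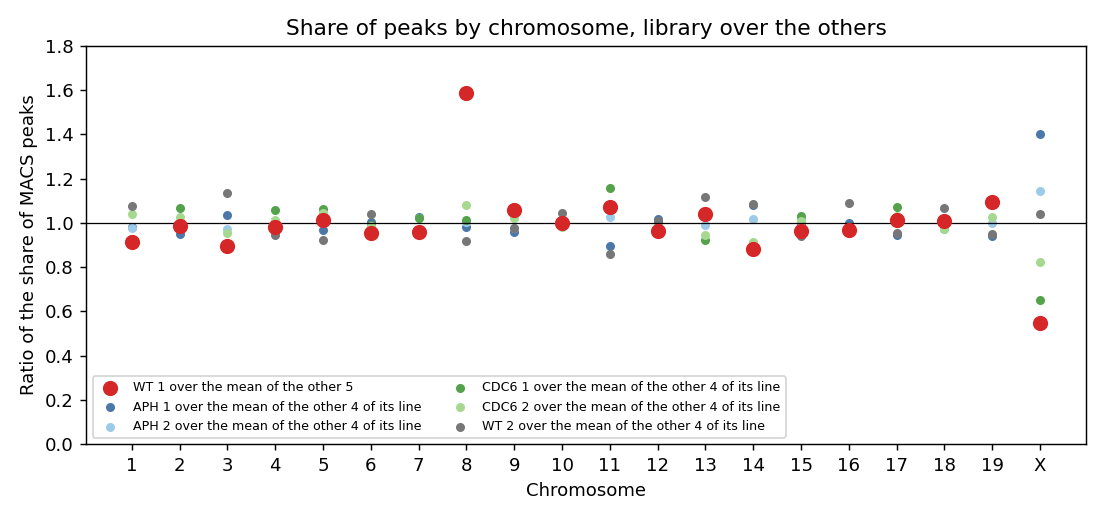
Share of MACS peaks on each of 20 chromosomes, as a ratio: large points are WT 1 over the mean of the other 5 libraries, small points each of those 5 over the mean of the remaining libraries of its line. WT 1 reaches 1.59 on chromosome 8, while the 5 others lie between 0.920 and 1.08 there.

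Weak and strong peaks alike were more often on chromosome 8 in WT 1. With each list cut into 5 equal classes by MACS q-value, chromosome 8 held 7.62%, 8.11%, 8.09%, 8.88% and 8.59% of the classes of WT 1, weakest first. In the other 5 libraries the share of any class was between 4.66% and 5.79%. Peaks of WT 1 were also wider on chromosome 8, with a median of 1231 bases against 1069 on the other autosomes, a ratio of 1.15. The same ratio was 0.985 to 1.02 in the other libraries. Peaks of chromosome 8 covered 16.2 Mb in WT 1, which was 10.6% of all its peak bases, against 6.09 to 7.76 Mb and 4.82% to 5.90% in the other 5.

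Fold enrichment over the control, which is the authors' MACS value for each peak, moved much less. The median fold of chromosome 8 peaks was 1.01 times that of other autosomal peaks in WT 1, and 0.996 to 1.00 times in the other 5. At 1419 chromosome 8 sites with a peak in all 6 libraries, the ratio to the like sites of other autosomes was 1.07 in WT 1, against 0.969, 0.953, 0.938, 0.971 and 0.973 in APH 1, APH 2, CDC6 1, CDC6 2 and WT 2. The −log10 q-value at those sites had a ratio of 1.21 in WT 1 and 0.840 to 0.923 in the others. At shared sites WT 1 alone had stronger peaks on chromosome 8 than elsewhere in its own list.

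The surplus ran the length of the chromosome. In each of 13 windows of 10 Mb, WT 1 had more peaks than any other library after scaling to equal totals. Its ratio to the mean of the other 5 was lowest, at 1.33, in the window from 0 to 10 Mb, which held 313 peaks of WT 1 against 165 to 209 in the others. It was also 1.33 from 50 to 60 Mb. It was highest, at 1.97, from 10 to 20 Mb, with 627 peaks of WT 1 against 230 to 322. From 110 to 120 Mb the ratio was 1.92. The last window, from 120 Mb on, held 806 peaks of WT 1, against 351 and 395 in the APH libraries, 514 and 543 in the CDC6 libraries and 295 in WT 2, so the other 5 differed most among themselves there.

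In 1 Mb bins, the number of peaks was scaled to equal totals and tested as log2(scaled peaks + 1) with limma over all 2545 bins of the genome. WT 1 was higher than the mean of the other 5 in 115 of 126 chromosome 8 bins, which is 91.3%, against 46.3% of 2267 bins of other autosomes. The median log2 difference was 0.63 on chromosome 8 and −0.05 on the other autosomes. At a Benjamini-Hochberg adjusted p under 0.05, limma called 34 chromosome 8 bins higher in WT 1 and 0 lower. Over the whole genome 1.41% of bins were called higher and 3.89% lower, and only 2 of the higher bins lay on another chromosome. WT 1 lay above all 5 other libraries in 98 of the 126 chromosome 8 bins (77.8%), against 22.7% of bins of other autosomes. The call rests on the libraries taken as the spread: 13 chromosome 8 bins were called higher without APH 2, where 0.511% of all bins were, 22 without APH 1, where 0.864% were, and 0 with the replicate number as a block or with the second lists described below.

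**Figure D2:**
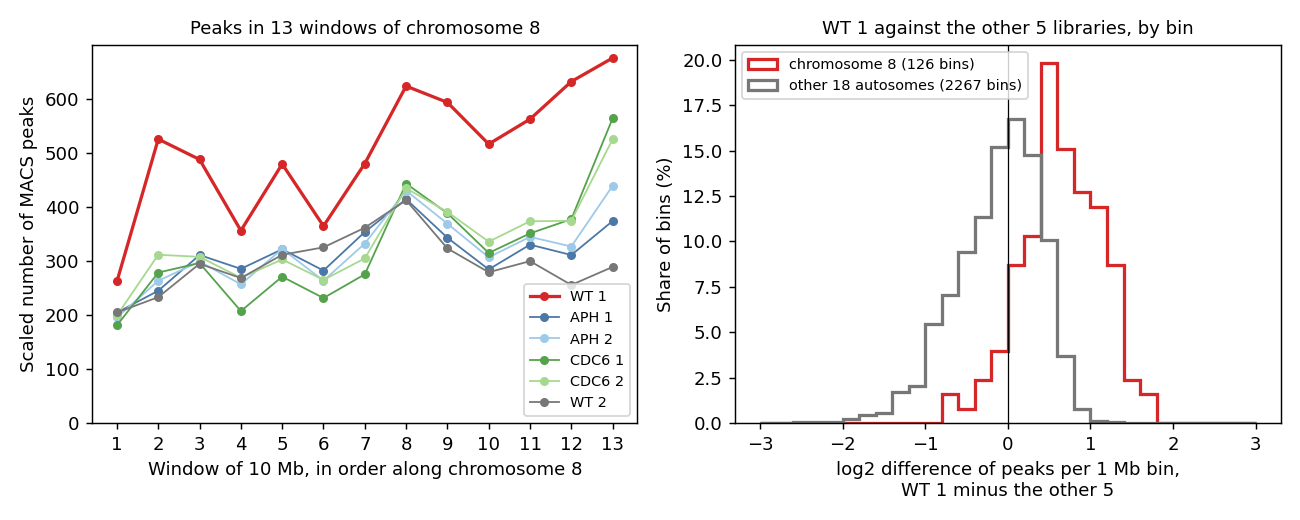
Left, scaled number of MACS peaks in 13 windows of 10 Mb in order along chromosome 8, 1 line per library. Right, the share of 1 Mb bins by log2 difference, WT 1 minus the other 5, for 126 chromosome 8 bins and 2267 bins of other autosomes. WT 1 is the top line in every window, and the chromosome 8 bins are shifted to a median of 0.63.

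The 5 bins with the largest differences held 1 to 11 gene ends, where the median bin of chromosome 8 held 9. The bin from 14 to 15 Mb, with Dlgap2 (a postsynaptic scaffold protein), Erich1, Cln8 and Arhgef10, had 77 peaks in WT 1 against 14, 15, 23, 30 and 15 in APH 1, APH 2, CDC6 1, CDC6 2 and WT 2. Its log2 difference was 1.69 ± 0.35 (SE), limma adjusted p = 0.019. The bin from 89 to 90 Mb, whose listed gene is Sall1 (a zinc finger factor of pluripotent cells), had 50 peaks in WT 1 against 9 to 15, a log2 difference of 1.64. Next was the bin from 78 to 79 Mb (84 against 17 to 27, with Pou4f2 and Slc10a7). The bins from 91 to 92 Mb (77 against 15 to 28, with Chd9, Rbl2, Fto and Irx3) and from 118 to 119 Mb (68 against 15 to 22, mostly within Cdh13) followed. The 5 bins were picked by their difference, so WT 1 lying far above every other library in them follows from the choice.

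Other stretches of the chromosome were not raised. The lowest bin, from 21 to 22 Mb, holds many alpha-defensin genes (Defa genes, antimicrobial peptides of Paneth cells). It held 19 peaks in WT 1, against 43 and 29 in the APH libraries, 19 and 16 in the CDC6 libraries and 38 in WT 2. The bins from 16 to 17 Mb (within Csmd1) and from 38 to 39 Mb (partly within Sgcz) had log2 differences of −0.63 and −0.50. None of the 5 lowest bins was called, with limma adjusted p between 0.277 and 0.594. Copies of Defa genes are alike in sequence, so reads there may be split or shared between copies, which was not tested.

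Gene density moved with the ratio of WT 1 to the others, and on chromosome 8 differently from elsewhere. Autosomal bins were cut into 3 classes by their number of gene ends (up to 6, over 6 and up to 18, and more). On chromosome 8 the ratio was 1.46 in 51 bins with fewest gene ends, 1.88 in 39 bins in the middle and 1.48 in 36 bins with most. On the other autosomes it was 0.742, 1.05 and 1.09. Chromosome 8 over the rest was thus 1.97, 1.78 and 1.36. In gene-poor bins, WT 1 had 34.9 peaks per bin on chromosome 8 and 18.2 on other autosomes, while the other 5 averaged 23.9 and 24.5.

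**Figure D3:**
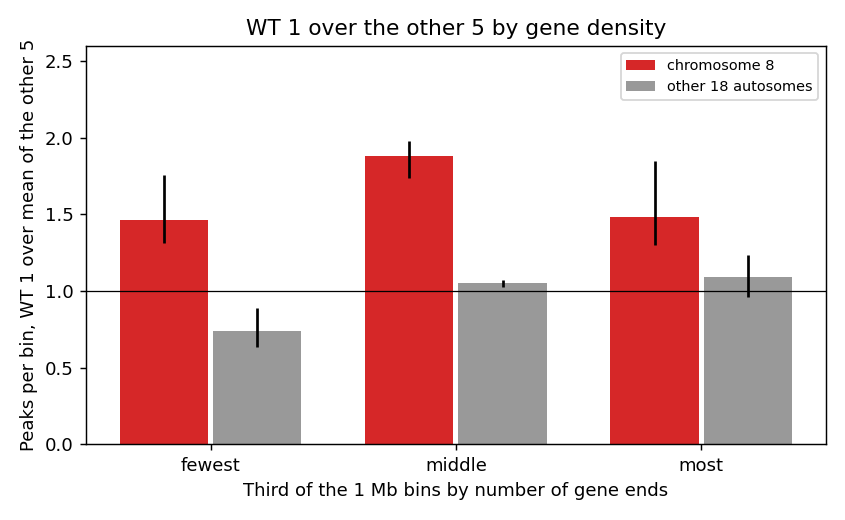
Peaks per 1 Mb bin of WT 1 over the mean of the other 5 libraries, for 3 classes of autosomal bins by gene ends. Bars start at 0, and lines run from the ratio to the highest to the ratio to the lowest of the other 5. All 3 chromosome 8 bars (1.46, 1.88 and 1.48) lie above the bars of other autosomes (0.742, 1.05 and 1.09).

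Many chromosome 8 peaks of WT 1 had no counterpart. Of its 7826 peaks there, 3377 (43.2%) met no peak of another library by 1 base or more, against 30.9% on the other autosomes. In APH 1, APH 2, CDC6 1, CDC6 2 and WT 2 this share was lower on chromosome 8 than elsewhere, at 4.54%, 1.98%, 2.41%, 8.70% and 11.2% against 6.90%, 2.71%, 5.20%, 12.6% and 18.1%. In turn WT 1 met 81.9% of the chromosome 8 peaks of CDC6 1 and 68.5% of those of WT 2, against 64.4% and 51.2% on the other autosomes. The longer a list is on a chromosome, the more peaks of other lists it meets, so both shares move with the number of peaks. In covered bases, WT 1 overlapped less with each other library on chromosome 8 (Jaccard index 0.168 to 0.280) than elsewhere (0.206 to 0.342).

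A second list of each library gave a measure that is not a number of peaks. Its first score was the same for all rows within a segment, and the genome fell into the same 1373 segments in all 6 lists, 68 of them on chromosome 8 (median length 1.38 Mb). The sources used here do not say what the score stands for, and the second score was at least 1.5 times the first in every row. In WT 1 the median first score of chromosome 8 segments was 1.65 times the median segment of the other autosomes, against 0.992, 0.989, 0.990, 1.03 and 1.01 in the lists labelled APH 1, APH 2, CDC6 1, CDC6 2 and WT 2. The other 5 lists thus all lay within a few percent of 1. WT 1 over the mean of the other 5 was 1.72 in the median segment of chromosome 8 and 1.08 on the other autosomes, and 0.576 on the X chromosome, with chromosome 8 first and X last of 20 chromosomes.

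Of the 68 chromosome 8 segments, 65 were higher in WT 1 than in the mean of the others, and in 60 WT 1 lay above all 5. By limma on the log2 relative score, with Benjamini-Hochberg adjustment, 50 were called higher and 1 lower, where 15.5% of all segments were called higher and 18.4% lower. Without any 1 of the other lists the chromosome 8 calls numbered 47 to 54. The ratio varied along the chromosome, with quartiles of 1.34 and 1.92. The highest was 2.43, in the segment from 107.9 to 108.5 Mb. The segment from 77.8 to 77.9 Mb had the lowest, 0.616, and was the one called lower. The segment from 19.1 to 22.0 Mb, which reaches over the Defa genes of the lowest bin, had a ratio of 0.876, limma adjusted p = 0.36.

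Rows of the second lists were spread more evenly. Chromosome 8 took 6.05% of the rows of WT 1's second list, against 5.18% to 5.27% in the others, a ratio of 1.16 where the MACS lists gave 1.59. Labels of the second lists of 4 TetO-CDC6 libraries go against those of the MACS lists. On chromosome 8 the list labelled APH 1 was met best by the MACS peaks of WT 2 (96.0% of its rows) and held all 1211 WT origins, and that labelled CDC6 1 was met best by APH 2 (97.6%) and held all 1688 APH origins. The list labelled APH 2 was met best by CDC6 1 (96.0%) and that labelled WT 2 by APH 1 (97.5%). That of CDC6 2 went with its label, with 94.3% met by CDC6 2 and all 1640 CDC6 origins in it. The second list of WT 1 was met by the MACS peaks of WT 1 in 89.6% of its chromosome 8 rows and by those of any other library in at most 44.0%. A comparison of WT 1 with the other 5 together does not change with swaps among those 5.

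**Figure D4:**
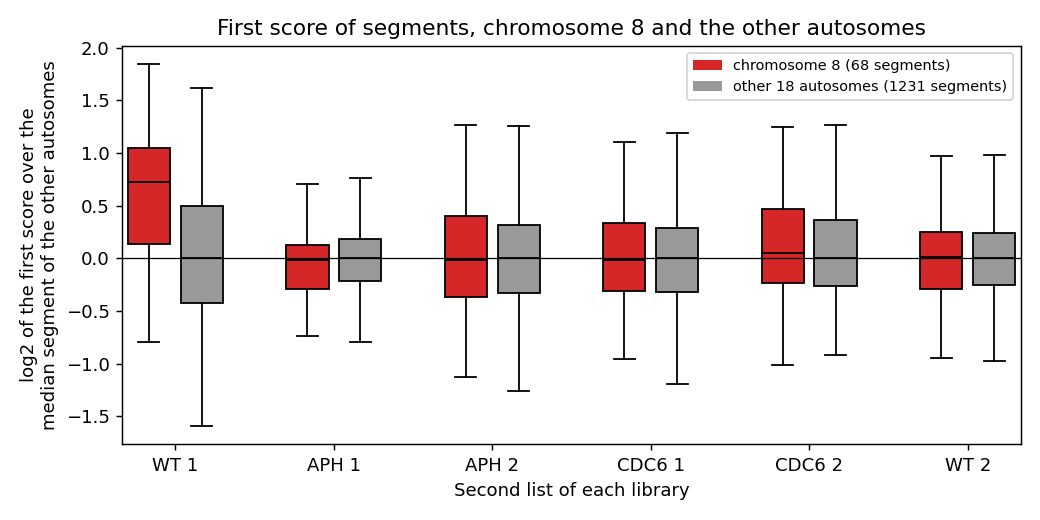
First score of each segment over the median segment of the other autosomes, on a log2 scale, by second list: boxes span the quartiles with the median as a line, and whiskers reach the last value within 1.5 box lengths. The chromosome 8 box of WT 1 is centred at 1.65-fold on the linear scale, and the medians of the 5 other chromosome 8 boxes lie close to 0.

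Bodies of long genes leaned the same way, though no single gene passed the test. Of 87 chromosome 8 genes of at least 50 kb with a mean of at least 5 peaks, 81 (93.1%) had a higher scaled number of peaks in WT 1 than in the mean of the other 5, against 58.9% of 1485 such genes elsewhere. The median log2 difference was 0.68 on chromosome 8 and 0.11 elsewhere. At the gene level limma called 0 of 1572 genes (0% higher and 0% lower over all), with 202 at an unadjusted p under 0.05, of which 33 lay on chromosome 8. The smallest adjusted p on chromosome 8 was 0.070. Without CDC6 1, limma called 5 chromosome 8 genes higher, where 0.318% of all genes were. With condition as a term beside the line it called 46 higher, where 23% of all genes were.

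Named genes varied widely in this. Hydin, which encodes a protein of motile cilia, held 31 peaks in WT 1 against 7, 6, 4, 7 and 5 in APH 1, APH 2, CDC6 1, CDC6 2 and WT 2, a log2 difference of 1.96 ± 0.34 (SE). Cdh13, which encodes the GPI-anchored T-cadherin, held 76 against 21, 20, 20, 22 and 13 (log2 difference 1.64). Dlgap2 held 54 against 8 to 19, Slc10a7 20 against 4 to 7, and Tenm3 61 against 25 to 27. These 5 genes were picked by their small p, so WT 1 lying above every other library in them adds no support. Among the genes with lower values in WT 1, Zfpm1, a cofactor of GATA factors, had 3 peaks against 4, 4, 8, 8 and 3, and Sgcz, a sarcoglycan gene, had 18 against 25, 13, 15, 20 and 28. Nfix, Gse1 and Fgfr1 had log2 differences of −0.35, −0.34 and −0.16. After scaling, WT 1 lay just below all other libraries in Zfpm1 and Fgfr1 and within their range in Sgcz, Nfix and Gse1.

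The list of long genes was chosen with earlier results known, and 15 of its 17 chromosome 8 members were tested. Wwox, whose human orthologue spans a common fragile site, held 65 peaks in WT 1 against 17 to 27 (log2 difference 1.22). Zfhx3 held 55 against 11 to 26, and Cacna1a, a calcium channel gene, 35 against 10 to 17. Csmd1, the longest at 1643 kb, held 28 against 14 to 25, with a log2 difference of 0.06. Nrg1, a growth factor of ERBB receptors, held 30 against 14 to 25 (0.27). The 2 genes with negative values were Sgcz and Gpm6a. None of these passed the test, with limma adjusted p from 0.070 (Cdh13) to 0.98 (Gpm6a).

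Gene ends of chromosome 8 carried peaks in WT 1 for most genes. Of 1042 protein-coding genes, 82.0% had a peak within 1 kb of either end in WT 1, against 56.0%, 60.0%, 67.4%, 69.6% and 52.7% in APH 1, APH 2, CDC6 1, CDC6 2 and WT 2. On the other autosomes the share was 67.0% in WT 1 and 49.0% to 60.5% in the others. A gene-end peak in WT 1 alone was found at 99 genes (9.50%), against 5.51% of genes of the other autosomes. Below, a gene is said to have an origin where one lay at a gene end. Origins inside gene bodies are not counted.

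All 18 listed replication and repair genes of chromosome 8 had a gene-end peak in WT 1, against 13, 15, 17, 17 and 13 in APH 1, APH 2, CDC6 1, CDC6 2 and WT 2. The exception in the CDC6 libraries was Neil3, a DNA glycosylase gene, whose gene-end peak was in WT 1 alone. Among genes of licensing and firing, Cdt1, Gins2 and Orc6 had end peaks in most libraries. None of the 3 lists held an origin at their ends. Mcm5, a subunit of the replicative helicase, and Gins3 and Gins4, subunits of the GINS part of that helicase, had an origin in the CDC6 list and in neither other list. Polb, Lig4, Wrn, Hmgb2, Smarca5, Terf2 and Ctcf were among the genes with an origin in all 3 lists. Terf2ip had one in the CDC6 and WT lists.

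Most of the listed transcription factor genes carried a peak in every library. Of 26 transcription factor genes, 24 had a gene-end peak in WT 1, against 21, 22, 23, 23 and 21 in APH 1, APH 2, CDC6 1, CDC6 2 and WT 2, and 20 had an origin in all 3 lists, among them Sall1, Irx3, Irx5, Foxf1, Hand2, Sox1, Klf2, Junb and Maf. Zfp42 (Rex1), a marker of naive stem cells, and Zfhx3 had neither an origin nor a peak at a gene end. Over all chromosome 8 genes, 31.3% had an origin at a gene end in all 3 lists. Of 8 cadherin genes, 7 had an end peak in WT 1, against 5, 4, 6, 6 and 2, and only Cdh3 had an origin in all 3 lists. Cdh1, the gene of E-cadherin, had end peaks in all libraries but WT 2, and no origin at a gene end in any list.

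Few defensin genes carried a peak at either end, and no carboxylesterase gene had an origin at either end. Of 53 defensin genes, 4 had a gene-end peak in WT 1, against 2, 4, 1, 3 and 1 in the others. No list held an origin at a gene end for 52 of them, where 51.6% of all chromosome 8 genes had none there. Of 19 carboxylesterase genes, 6 had a gene-end peak in WT 1 and 0 to 2 in the others, and none had an origin at a gene end. Of the 4 metallothionein genes, which bind zinc and copper, all had an end peak in WT 1, against 2, 2, 3, 3 and 1 in APH 1, APH 2, CDC6 1, CDC6 2 and WT 2.

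No shift of the chromosome 8 share with replication stress passed the test, and its sign depended on WT 1. The share averaged 5.17% ± 0.079 in APH, 5.40% ± 0.191 in CDC6 and 6.56% ± 2.40 in WT (SD, n = 2 each). Stressed libraries minus WT came to −1.28 percentage points (two-sided exact permutation p = 0.33 over 15 splits, of which the smallest possible is 0.067). The sign turned without WT 1: within the TetO-CDC6 line the 4 stressed libraries averaged 0.425 points above WT 2 (exact p = 0.20, the smallest possible with 5 splits).

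In 1 Mb bins over all 6 libraries, limma called 0 bins anywhere in APH against WT, in CDC6 against WT or in APH against CDC6 (0% higher and 0% lower over the genome in each). At an unadjusted p under 0.05 there were 54, 48 and 80 bins, of which 7, 18 and 2 lay on chromosome 8. The median log2 difference of chromosome 8 bins was −0.27 for APH minus WT and −0.35 for CDC6 minus WT, against 0.03 and 0.0041 on the other autosomes. Without WT 1 these chromosome 8 medians were −0.02 and −0.06. Without WT 2, and so with WT 1 as the lone untreated library, 74 chromosome 8 bins were called lower and 1 higher under APH, and 68 lower and 0 higher under CDC6. Over the genome 14.9% of bins were then called lower and 24.2% higher under APH, and 4.56% lower and 6.92% higher under CDC6. Fewer chromosome 8 peaks under stress were thus seen with WT 1 as the control, and not with WT 2.

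Within the TetO-CDC6 line, the chromosome 8 bins called under CDC6 overexpression fell apart by gene density. These fits set each condition against WT 2 alone, which was assumed to vary like the other libraries. For CDC6 minus WT 2, 30 chromosome 8 bins were called higher and 12 lower, where 13.4% of all bins were called higher and 17% lower. The higher bins had a median of 27.5 gene ends and the lower ones 2.5, against 9 over all chromosome 8 bins tested. Gene ends of the bins called on other chromosomes were not compared, so this is not shown to be particular to chromosome 8. Of the 30 higher bins, 14 lay among the 30 bins from 100 Mb on, and 0 of the lower ones did. The bin from 122 to 123 Mb, with Zfpm1, Banp, Cyba and Mvd, held 96 and 102 peaks in CDC6 1 and CDC6 2 and 34 in WT 2, a log2 difference of 1.59. It held 53 and 61 in the APH libraries and 107 in WT 1. WT 1 lay above all other 5 libraries in most of the higher bins after scaling, as it did in 98 of all 126 chromosome 8 bins.

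Aphidicolin gave few differences in this fit. For APH minus WT 2, 1 chromosome 8 bin was called higher and 0 lower, where 1.22% of all bins were called higher and 0.472% lower. It was the bin from 108 to 109 Mb, which holds Zfhx3, with 29 and 30 peaks in APH 1 and APH 2 and 18 in WT 2. For APH minus CDC6, 2 bins were called higher and 9 lower, where 5.74% and 4.24% of all bins were. The higher ones were the Defa gene bin from 21 to 22 Mb (43 and 29 peaks in APH, 19 and 16 in CDC6) and the bin from 39 to 40 Mb with Tusc3 and Msr1 (27 and 29 in APH, 17 and 18 in CDC6). WT 2 had 38 and 27 peaks in these bins. APH and CDC6 share WT 2 as their control, so their differences from it are not independent.

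Among long genes limma called 0 of 1572 for each of these comparisons over 6 libraries, with 56, 70 and 85 at an unadjusted p under 0.05 for the comparisons of APH with WT, of CDC6 with WT and of APH with CDC6. On chromosome 8 the smallest p-values for CDC6 minus WT belonged to Csgalnact1, Zfpm1, Gm7827 and Gse1. Csgalnact1, a chondroitin sulphate enzyme gene, had 4 and 6 peaks in CDC6, 11 and 11 in APH, and 20 and 12 in WT (CDC6 minus WT log2 difference −1.31). Gse1 had 48 and 45 peaks in CDC6, 31 and 30 in APH, and 33 and 22 in WT (log2 difference 0.94). Gm7827 had 1 and 2 peaks in CDC6, 9 and 5 in APH, and 6 and 9 in WT. For APH minus WT, Wrn, the Werner syndrome helicase gene, had 3 and 2 peaks in APH and 9 and 9 in WT (log2 difference −1.32), and Chd9 had 5 and 6 against 17 and 11. Csgalnact1, Zfpm1, Gm7827, Gse1, Wrn and Chd9 were picked by their small p, so the gap between their stressed and untreated libraries adds no support. For CDC6 minus WT the limma adjusted p was 0.814 (Csgalnact1, Zfpm1, Gm7827 and Gse1), and for APH minus WT it was 0.979 (Wrn and Chd9). Without WT 1, limma called 8, 28 and 7 of the 87 chromosome 8 genes in the 3 comparisons, where 6.49%, 23.5% and 5.85% of all 1572 genes were called. Without WT 2 it called 38, 21 and 12, where 17.6%, 4.39% and 7.38% of all genes were.

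The stress lists exceeded the WT list by less on chromosome 8 than elsewhere. The APH, CDC6 and WT lists held 1688, 1640 and 1211 chromosome 8 origins, which were 5.33%, 5.23% and 6.002% of each list. APH over WT was 1.39 on chromosome 8 and 1.58 on all other chromosomes, and CDC6 over WT was 1.35 and 1.57. With 1 list per condition there is no replicate check of these ratios. The WT list is the divisor in both. Of its chromosome 8 origins, 99.5% met a peak of WT 1 and 100% a peak of WT 2. WT 1 had 8.26% of its peaks on this chromosome, while the highest share in any other library was 5.53%. How far the lower chromosome 8 ratios follow from WT 1 was not tested. Along the chromosome, APH over WT ran from 1.24 (50 to 60 Mb) to 1.92 (30 to 40 Mb) and CDC6 over WT from 1.13 to 1.73 in the same windows. Every APH origin of chromosome 8 had a peak in both APH libraries, and at least 99.5% of CDC6 and WT origins had one in each library of their condition. 

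Lists of stressed and untreated cells shared much of chromosome 8. Of the 1688 APH origins, 50.3% overlapped a WT origin by at least 1 base, and of the 1640 CDC6 origins 46.7% did, against 45.8% and 44.0% on the other autosomes. Among the 1211 WT origins, the share that met an APH origin was 71.3% and the share that met a CDC6 origin 64.2%, against 71.8% and 68.8% elsewhere. Merging the lists gave 2524 chromosome 8 regions, of which 682 were in all 3 lists, 384 in both stress lists alone, 455 in APH alone, 490 in CDC6 alone, 265 in WT alone, 166 in WT and APH, and 82 in WT and CDC6. As a share of all regions, those in all 3 lists made up 27.0% on chromosome 8 and 25.7% elsewhere.

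Regions that only stressed lists held were often peaks in WT 1. Of the chromosome 8 regions in both stress lists alone, 75% met a peak of WT 1, of those in APH alone 68.8% and of those in CDC6 alone 76.9%. On the other autosomes these shares were 57.6%, 47.8% and 61.3%. WT 2 had a peak in 83.9%, 57.4% and 45.7% of the same chromosome 8 regions, against 86.0%, 59.3% and 50.6% elsewhere. The shares of WT 1 were higher on chromosome 8 than elsewhere in all 3 classes, and those of WT 2 were slightly lower, with no test of either. The more peaks a library has on a chromosome, the more regions of any kind meet one. The shares of WT 1 thus move with its number of peaks there.

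**Figure D5:**
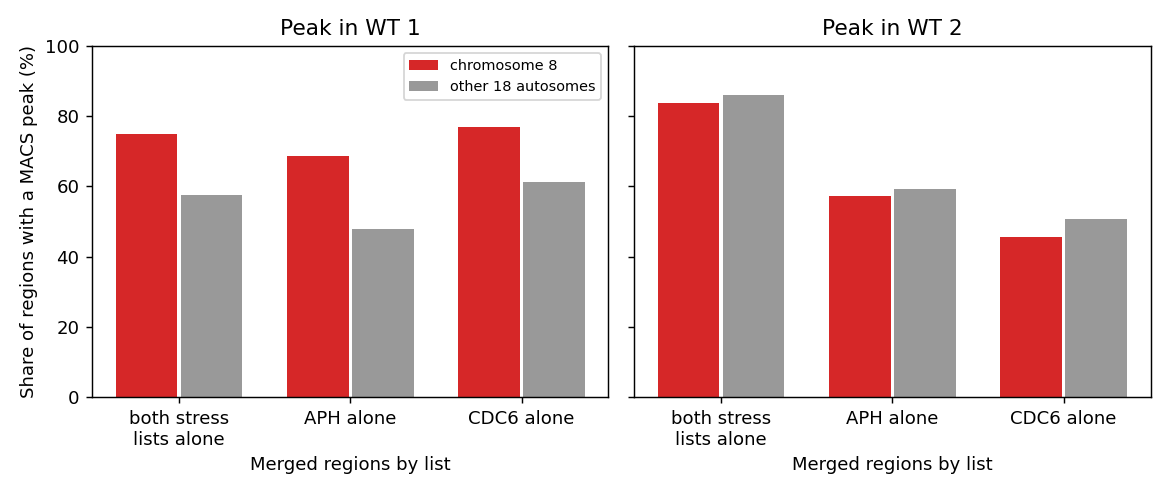
Share of merged origin regions that only stressed lists held and that met a MACS peak, in WT 1 (left) and WT 2 (right), on chromosome 8 and on the other 18 autosomes. In WT 1 chromosome 8 is higher in all 3 classes (75%, 68.8% and 76.9%), and in WT 2 it is slightly lower.

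Position at genes differed by class. Of chromosome 8 regions in all 3 lists, 42.1% lay within 1 kb of a gene end, against 11.2% of those in both stress lists alone, 4.84% in APH alone, 15.1% in CDC6 alone and 3.77% in WT alone. On the other autosomes the shares were 45.5% for all 3 lists, 9.02% for both stress lists alone, 4.79% for APH alone, 16.95% for CDC6 alone and 7.39% for WT alone.

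The highest ranked gene-end region in all 3 lists was at Neto2 (chromosome 8, 85699633 to 85701583), which encodes an auxiliary subunit of kainate receptors and whose promoter is printed above. Its MACS fold was 7.97, 9.54, 9.01 and 9.39 in APH 1, APH 2, CDC6 1 and CDC6 2, and 10.4 and 6.01 in WT 1 and WT 2. Mlycd (119394300 to 119396018), Zdhhc2 and Siah1a, a ubiquitin ligase gene, were also among the top regions, all with a peak in all 6 libraries. Regions in both stress lists alone led with Zfpm1, Homer3, Irx5, Necab2 with Osgin1, and Ndufa13 with Tssk6. Each of these 5 also had a peak in both untreated libraries, with folds from 3.57 to 6.40. As genes, Zfpm1 and Irx5 had an origin in all 3 lists, so the WT list held another origin at each. Homer3, a postsynaptic scaffold gene, had folds of 10.8 and 8.55 in APH, 5.62 and 4.27 in CDC6, and 4.06 and 4.78 in WT 1 and WT 2.

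Of regions in the APH list alone, those at Slc27a1, Rex1bd, Jund and Cyba with Mvd were among the highest ranked. Of these, all but Rex1bd met a peak in all 6 libraries. As a gene, Jund also had an origin in the CDC6 list. In the CDC6 list alone, the region at Cd209b (3916378 to 3917011), a C-type lectin gene, met peaks in CDC6 1 and CDC6 2 alone, with folds of 8.29 and 5.59. Zfp423 and Kcnn1 met one in all 6 libraries, Mc1r with Tubb3 in 5, and Tmem255b in 4. In the WT list alone, the region at Rhou, a small GTPase gene, had folds of 4.80, 6.14, 5.09 and 6.36 in the stressed libraries and 7.51 and 3.58 in WT 1 and WT 2. Lonp2, Lzts1, Nanos3 and Il27ra followed, and Nanos3 too had a peak in every library. All of the regions named here met a peak in WT 1 except that at Cd209b. In WT 2 those at Cd209b, Rex1bd and Tmem255b met none.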

How the data were processed

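Short nascent strands of mouse embryonic stem cells were sequenced in 6 libraries, and only processed lists were used. Per the submitters' processing notes, MACS2 2.0.10 and BWA 0.7.10 were among the tools, with bedtools 2.23.0, Picard 1.107, SAMtools 0.1.19 and FastQC, and the builds named are GRCm38, mm10 and mm9; peak ends lie within GRCm38, whose gene table was used. In the deposited MACS lists the authors give per peak a fold (ratio) over 1 control, a −log10 p-value, a −log10 q-value and a score that is 10 times the q-value term. The deposited second lists and origin lists hold 2 scores each of unstated meaning. No read counts were used, so depth is unknown, and no interval that needs it is given. Peaks were assigned to a bin or gene by position, scaled to the mean total of the libraries and tested as log2(scaled peaks + 1), over features with a mean of at least 5, by limma's moderated linear model with a mean trend (version 3.58.1, R 4.3.3), with Benjamini-Hochberg adjustment over the genome. A lone library was assumed to vary like the others. Origins of the 3 lists that overlapped by 1 base were merged.

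The chromosome, the gene lists and the tests were chosen with earlier results of these data known, and the segments of constant first score were found after the files were seen. Named are the listed genes on chromosome 8, the 5 genes of at least 50 kb with the smallest p on each side of each comparison, the 5 gene-end regions with the highest mean rank in each class, and the 5 highest and 5 lowest bins. The alternatives were other scalings, bin widths, pseudocounts, filters, overlaps, gene-end windows, gene lengths, lists, covariates and each library left out. The gene table and promoter sequences are RefSeq's. The fits were tested on simulated data. The input sample was not analysed here, and a few genes that the rule names are not reported here.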

Additional observations from a re-analysis of the deposited data

How the results depend on the processing

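The chromosome 8 share of WT 1 stayed above that of the other 5 libraries under every alternative run. The share ratio, 1.59 as reported, was 1.61 for peaks with a −log10 q-value of at least 2, 1.63 for the 60000 strongest peaks, 2.02 for covered bases and 1.16 for the second lists, and 1.56 to 1.61 when each other library was left out. The 34 called bins became 22 at 500 kb, 69 with condition as a term, 0 with the second lists and 0 with the replicate block, and 13 to 40 when each other library was left out. Bins of 500 kb are more numerous, and with condition as a term many long genes of other chromosomes were called too. The share of all bins called is not given for either, so 22 and 69 cannot be set against 34. The replicate numbers were not shown to pair the libraries (correlations of deviations −0.293, −0.518 and 0.282). With every replicate number present in each condition, the replicate block could not change the share difference of stressed libraries minus WT. It stayed at −1.28 by construction. That difference ranged from −2.98 to 0.425 without 1 library, and was 0.425 without WT 1. With 1 library left out, called chromosome 8 bins ran from 0 to 75 for APH minus WT, 0 to 68 for CDC6 minus WT and 0 to 16 for APH minus CDC6. Called long genes ran from 0 to 5 for WT 1 minus the others (46 with condition as a term), 0 to 38 for APH minus WT, 0 to 28 for CDC6 minus WT and 0 to 12 for APH minus CDC6, and called segments from 47 to 54. As given above, the fits without WT 1 or without WT 2 also called bins and long genes over the whole genome. These counts are therefore not of chromosome 8 alone. No share of all features is given for the 16 bins of APH minus CDC6 or for the segment range, so neither can be judged against the genome. The origin ratios outside chromosome 8 were 1.58 for APH over WT and 1.57 for CDC6 over WT, and 43.8% of CDC6 origins met a WT origin when most of the origin had to overlap. Within 5 kb of a gene end lay 50.0% of regions in all 3 lists, 19.01% in both stress lists alone, 14.9% in APH alone, 31.4% in CDC6 alone, 11.3% in WT alone and 19.3% in WT and APH. The median fold ratio at shared sites was 0.969, 0.953, 0.938, 0.971, 1.07 and 0.973 in APH 1, APH 2, CDC6 1, CDC6 2, WT 1 and WT 2, and the −log10 q-value ratio over all peaks 1.03, 1.03, 1.01, 1.04 and 1.02 in APH 2, CDC6 1, CDC6 2, WT 1 and WT 2. The sign also turned for the bin from 5 to 6 Mb with the stricter q-value (0.012) and, for APH minus WT, for Piezo1 (−0.26 without WT 2, 1.702 without WT 1) and Tacc1 (−0.66 without WT 2, 1.44 without WT 1). The cause of these shifts was not tested. With 1 library of its line, WT 1 has no replicate, and neither line nor culture can be told apart from the library.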
